A study of Mus musculus with 80 samples.

Results

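A set of 10 genes that fold or degrade proteins inside mitochondria were followed through brown fat (BAT), inguinal white fat (iWAT), liver and muscle of mice lacking UCP1, FGF21 or both. They are Hspd1, Hspe1, Hspa9, Trap1, Lonp1, Clpp, Clpx, Afg3l2, Yme1l1 and Spg7, chosen by name, and all 10 were found among the 32764 genes of the count tables. All 10 passed the filter on low counts in each tissue, so no member is missing from any comparison. The mice were male C57BL/6J animals bred at 30 °C, near thermoneutrality, and moved at 10 to 12 weeks of age to room temperature and a high-fat diet for 3 weeks, the wild-type (WT) mice included. Food was withdrawn for 2 to 3 hours before tissue collection. The other genotypes were FGF21 KO, UCP1 KO and the double knockout (dKO), whose label spells its second gene as FGF12 while the study's account of the breeding gives UCP1 and FGF21. Each of the 16 groups of tissue and genotype held 5 libraries of poly(A) RNA, 80 in all, read as 100 bp pairs.

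Proteins made in the cytosol enter mitochondria unfolded, and a small set of nuclear-encoded chaperones and proteases receives them. When damaged or unassembled proteins build up in the matrix, animal cells raise transcripts of this set, a reaction known as the mitochondrial unfolded protein response. In mammals that reaction overlaps with the integrated stress response run by the transcription factor ATF4. UCP1 is the carrier that lets brown fat mitochondria burn fuel as heat, and FGF21 is a hormone that stressed liver, fat and muscle can release.

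Total counts per library ran from 28691377 to 50380696, with a median of 38022853. Fgf21 had at most 3 reads in any FGF21 KO or dKO library of the 4 tissues, against 353 to 1728 in BAT of UCP1 KO mice. Ucp1 reads persisted in the mice that lack UCP1: BAT held 24291 to 60779 in UCP1 KO where WT held 98548 to 216085, and iWAT held 3942 to 20264 where WT held 109 to 776, so this gene's count does not check the UCP1 labels in iWAT. Markers of other tissues were uneven. The mean log2 level of 10 skeletal muscle genes was above 6 in 2 UCP1 KO and 3 dKO libraries of BAT and in none of the WT or FGF21 KO libraries. In iWAT the mean log2 level of 8 lymph node genes was between 6.49 and 7.37 in 9 libraries (4 FGF21 KO, 2 dKO, 2 WT and 1 UCP1 KO), and at or below 1.76 in the rest. Values without these libraries stand in the account of genotype differences in each fat tissue. The labels do not say which tissues came from the same mouse, and in whole tissue fewer cells of a type and less RNA per cell cannot be told apart.

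On the GRCm38 build, Hspd1 lies on chromosome 1 at 55077835 to 55088243 on the minus strand, head to head with Hspe1 at 55088132 to 55091307 on the plus strand, so that the 5′ ends of both genes overlap. Hspa9 lies on chromosome 18 at 34937414 to 34954357 and Afg3l2 on the same chromosome at 67404764 to 67449172. Lonp1 and Clpp are both on chromosome 17, at 56614297 to 56626887 and 56990305 to 56996188. Trap1 is on chromosome 16 at 4039971 to 4077827, Clpx on chromosome 9 at 65294260 to 65330658, Yme1l1 on chromosome 2 at 23156369 to 23199260 and Spg7 on chromosome 8 at 123062942 to 123097760. Reads count toward whole genes, with exons and untranslated parts together. The annotation holds 5 named pseudogenes of Hspd1, 6 of Hspe1 and 1 of Hspa9, and Trap1 overlaps Dnase1, which had at most 51 reads in a library. How the authors' counting divided reads among these copies and overlaps was not stated, so the levels of Hspd1 and Hspe1 in particular are less certain than their counts.

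In WT mice brown fat carried the highest level of 8 of the 10 genes, and inguinal fat the lowest level of 9. Levels are in counts per 1000000 (CPM) after scaling the 20 WT libraries together by the TMM method. WT iWAT includes replicates 4 and 5, with mean log2 marker levels of 6.49 and 6.89 for lymph node and 6.30 and 9.69 for muscle. Levels without both were not computed. Hspa9, the mitochondrial Hsp70 that pulls proteins through the import channel and folds them, was at 1544 ± 52.2 CPM (SD, n = 5) in BAT, 741 ± 34.5 in liver, 676 ± 56.3 in muscle and 254 ± 26.7 in iWAT. Hspd1, the Hsp60 ring that encloses unfolded matrix proteins, stood at 955 ± 41.9 CPM in BAT, 689 ± 76.4 in liver, 344 ± 26.5 in muscle and 196 ± 21.8 in iWAT. Hspe1, the Hsp10 lid of that ring, followed the same order, from 183 ± 16.3 CPM in BAT through 165 ± 29.7 in liver and 72.7 ± 8.84 in muscle to 41.3 ± 5.52 in iWAT. Trap1, the mitochondrial Hsp90, was at 381 ± 3.64 CPM in BAT, 239 ± 10.7 in liver, 188 ± 9.03 in muscle and 136 ± 20.9 in iWAT.

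The proteases of the matrix were ordered in the same way, except for the unfoldase Clpx. Lonp1, the ATP-driven protease that clears oxidised and misfolded matrix proteins, was at 265 ± 13.3 CPM in BAT, 180 ± 7.49 in liver, 125 ± 4.54 in muscle and 85.7 ± 10.6 in iWAT. Clpp, the peptidase chamber of the other matrix protease, was at 71.5 ± 5.47 CPM in BAT, 36.1 ± 5.13 in liver, 22.9 ± 2.46 in muscle and 20.7 ± 2.53 in iWAT. Clpx, the ATPase that feeds proteins to Clpp, was highest in liver at 302 ± 119 CPM, with a wide spread from 169 to 461, and stood at 150 ± 13.7 in BAT, 94.6 ± 2.64 in muscle and 47.0 ± 9.31 in iWAT. The partner genes were therefore in different proportion from tissue to tissue: the liver of WT mice had 8.74 ± 4.53 Clpx reads for each Clpp read (SD, n = 5) against 2.11 ± 0.291 in BAT.

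The inner membrane proteases differed most between tissues for Afg3l2 and least for Yme1l1. Afg3l2, a subunit of the m-AAA protease that faces the matrix, was at 284 ± 8.16 CPM in BAT, 116 ± 9.66 in muscle, 105 ± 11.4 in liver and 44.3 ± 1.80 in iWAT. Its partner subunit Spg7 (paraplegin) was at 115 ± 5.90 CPM in BAT, 105 ± 4.49 in muscle, 44.8 ± 4.32 in iWAT and 43.2 ± 2.29 in liver. Yme1l1, the i-AAA protease that faces the intermembrane space, was highest in liver at 136 ± 4.22 CPM, followed by muscle at 97.6 ± 2.71, BAT at 93.6 ± 2.80 and iWAT at 70.6 ± 1.83. Neighbours in these orders differed at an adjusted p under 0.01 (edgeR quasi-likelihood F test, Benjamini-Hochberg over all genes tested) apart from the following pairs: Hspe1 in BAT and liver, Hspa9 in liver and muscle, Clpp in muscle and iWAT, Afg3l2 in muscle and liver, Yme1l1 in muscle and BAT, and Spg7 both in BAT and muscle and in iWAT and liver.

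**Figure D1:**
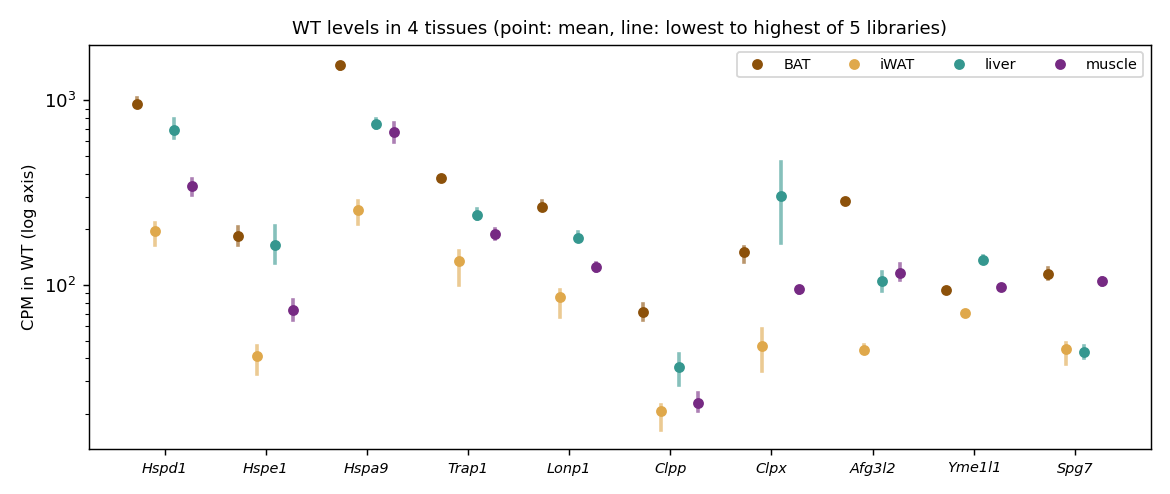
CPM (log axis) of the 10 genes in WT mice, with a point for the mean and a line from the lowest to the highest of 5 libraries in each of 4 tissues. BAT is the highest tissue except for Clpx and Yme1l1, which are highest in liver, and iWAT is the lowest except for Spg7, where iWAT at 44.8 CPM and liver at 43.2 CPM lie together.

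Against iWAT all 10 genes were higher in WT BAT, by log2 differences from 0.43 for Yme1l1 to 2.70 for Afg3l2, with a median of 1.76 where the median of all genes tested was -0.10. Large tissue differences are common here: 60.7% of all 16886 genes tested were called between BAT and iWAT. Against liver 9 of 10 were called, 7 higher and 2 lower in BAT (67.3% of all genes), and against muscle 8 were called, all higher in BAT (64.1%). Between the other tissues 9 of 10 were called in iWAT against liver (74.9% of all genes), 9 in iWAT against muscle (74.4%) and 8 in liver against muscle (73.8%). The members' counts, 8 to 10 of 10, are read against these shares. The FGF21 KO mice, used in place of WT, gave the same number of calls for BAT against iWAT and against muscle. The share of all genes in that fit is not given, nor are the other tissue pairs. All but 1 of the FGF21 KO iWAT libraries had a high lymph node level.

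Per kilobase of merged annotated exon, which allows levels of different genes to be set side by side, Hspd1 and Hspa9 were the most abundant of the 10 in every tissue of WT mice. These levels were scaled within each tissue and not over the WT libraries together. They compare genes inside a tissue and are not comparable between tissues. In BAT they reached 381 and 378 CPM per kb, and Yme1l1 was lowest at 12.3 CPM per kb. In iWAT Hspd1 was at 120.0 CPM per kb and Afg3l2 at 7.26, and in liver Hspd1 was at 202 and Spg7 at 7.43. Merged exons include every annotated transcript end, so genes with long alternative ends such as Afg3l2 and Yme1l1 are set low by this scale.

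The regions just upstream of 3 members are shown for a member that rose in BAT, Lonp1, a member that fell there, Trap1, and for Hspe1, whose window overlaps one of Hspd1. Each window runs from 250 bases before to 50 after an annotated start (RefSeq, GRCm38.p6), written 5′ to 3′ along the gene. Windows were found for 8 of the 10 genes, and not for Hspa9 or Afg3l2. Short motifs were searched on both strands, and their matches are in capitals. They were TGATGNAA (a composite ATF and C/EBP site), GAANNTTC (a pair of heat shock repeats), AAGGTCA (a site of oestrogen-related receptors), GCGCATGC (a core of NRF1 sites) and CCAAT.
Hspe1, chr1:55087898-55088197, plus strand: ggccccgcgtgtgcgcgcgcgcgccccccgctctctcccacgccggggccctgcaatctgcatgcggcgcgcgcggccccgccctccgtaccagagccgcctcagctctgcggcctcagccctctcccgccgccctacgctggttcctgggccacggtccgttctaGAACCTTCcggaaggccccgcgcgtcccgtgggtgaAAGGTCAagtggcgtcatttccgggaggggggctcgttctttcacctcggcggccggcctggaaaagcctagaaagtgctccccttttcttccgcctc
Trap1, chr16:4077761-4078060, minus strand: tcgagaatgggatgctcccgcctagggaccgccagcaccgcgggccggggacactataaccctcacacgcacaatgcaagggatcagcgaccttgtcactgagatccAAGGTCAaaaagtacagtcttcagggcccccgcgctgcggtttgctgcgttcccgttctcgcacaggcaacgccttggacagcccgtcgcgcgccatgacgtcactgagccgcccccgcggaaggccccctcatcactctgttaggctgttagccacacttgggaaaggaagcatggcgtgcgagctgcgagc
Lonp1, chr17:56626854-56627153, minus strand: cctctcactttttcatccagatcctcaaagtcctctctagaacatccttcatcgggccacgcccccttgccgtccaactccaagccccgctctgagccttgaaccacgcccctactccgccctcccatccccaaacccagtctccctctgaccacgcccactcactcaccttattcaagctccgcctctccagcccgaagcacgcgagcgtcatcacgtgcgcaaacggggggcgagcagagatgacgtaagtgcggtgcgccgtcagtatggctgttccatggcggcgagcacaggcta

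The Hspe1 window held a heat shock pair 84 bases before the start and the letters AAGGTCA 48 bases before it. It shares 285 bases with a window of Hspd1, read from the other strand, so the same matches stand in that window of Hspd1 and inside the annotated Hspd1 gene. Trap1 held AAGGTCA 143 bases before its start, and none of the 5 motifs was found in the Lonp1 window. A further window of Hspd1, which shares 4 bases with that of Hspe1, held a CCAAT box. Among the other windows, Clpx held an NRF1 core and a CCAAT box, Yme1l1 a CCAAT box, and Clpp and Spg7 no match. Of 27025 promoters, 4.06% held the ATF and C/EBP composite, 7.95% the heat shock pair, 4.66% AAGGTCA, 2.80% the NRF1 core and 37.9% CCAAT. A match describes letters and not a bound site, and a missing match covers this window alone.

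In brown fat the loss of UCP1 moved 4 of the 10 genes, in opposite directions: Lonp1 and Hspa9 rose and Trap1 and Spg7 fell. The comparison asks how brown fat responds when its heat-producing carrier is missing. The same 4 genes, in the same directions, were called when UCP1 was lost on the FGF21-deficient background (dKO against FGF21 KO), a comparison that shares no library with UCP1 KO against WT. Of all 15729 genes tested, 25.2% were called in UCP1 KO against WT and 13.5% in dKO against FGF21 KO, so 4 of 10 is not far above the background of the first. The median log2 difference of the 10 genes was -0.12 and -0.03 in these comparisons, beside 0.01 for all genes in UCP1 KO against WT.

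Lonp1 had 266, 301, 273, 284 and 271 CPM in the 5 WT libraries of BAT and 437, 579, 874, 968 and 1306 CPM in the 5 UCP1 KO libraries. It had 331, 308, 293, 312 and 314 CPM in FGF21 KO and 645, 670.1, 558, 371 and 589 CPM in dKO. Every library without UCP1 was above every library with it, and the spread among UCP1 KO mice was wide. The fold change of UCP1 KO over WT was 2.96 (log2 1.57 ± 0.21 SE, adjusted p = 2.1e-05, edgeR), and of dKO over FGF21 KO 1.81 (log2 0.85 ± 0.21, adjusted p = 0.0056). UCP1 KO and dKO did not differ at the threshold (log2 0.56 ± 0.21, adjusted p = 0.29). The call in dKO against FGF21 KO was lost in 8 of 20 fits that left out a library (adjusted p up to 0.015): without dKO replicate 1, 2 or 5, and without any of the 5 FGF21 KO libraries.

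Hspa9 had 1654, 1665, 1574, 1570 and 1680 CPM in WT BAT and 2243, 1920, 2687, 2901 and 3047 CPM in UCP1 KO. In FGF21 KO it had 1571, 1706, 1652, 1663 and 1950 CPM and in dKO 2593, 2577, 2428, 2240 and 2600 CPM. Each UCP1-deficient group lay wholly above its own comparison group. The log2 fold change was 0.64 ± 0.10 SE in UCP1 KO against WT (adjusted p = 0.00013) and 0.53 ± 0.10 in dKO against FGF21 KO (adjusted p = 0.0012).

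Trap1 and Spg7 fell by less, with narrow spreads. Trap1 had 395, 403, 400.2, 406 and 407 CPM in WT BAT, and 313, 298, 331, 312 and 296 CPM in UCP1 KO. It had 401, 392, 411, 406 and 413 CPM in FGF21 KO and 316, 333, 328, 283 and 321 CPM in dKO. The groups without UCP1 did not overlap those with it. Spg7 had 118, 129.9, 124, 120.3 and 114 CPM in WT and 92.5, 103, 96.7, 88.8 and 85.4 CPM in UCP1 KO. It had 129.9, 133, 129, 121 and 126 CPM in FGF21 KO and 108, 105, 102, 90.1 and 105 CPM in dKO, again with no overlap. Trap1 fell by 0.39 ± 0.05 SE (log2) in UCP1 KO against WT (adjusted p = 1.7e-05) and by 0.36 ± 0.05 in dKO against FGF21 KO (adjusted p = 6.2e-05). Spg7 fell by 0.39 ± 0.06 (adjusted p = 8.1e-05) and by 0.33 ± 0.06 (adjusted p = 0.00067).

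The other 6 genes did not pass the threshold in either comparison in BAT. Hspd1 was at 1007 ± 44.7 CPM (SD, n = 5) in WT and 1087 ± 235 in UCP1 KO, and Clpx at 158 ± 14.0 and 176 ± 35.0. Clpp was at 75.4 ± 5.83 CPM in WT and 66.3 ± 9.45 in UCP1 KO, Afg3l2 at 299.9 ± 8.26 and 292 ± 35.6, and Yme1l1 at 98.8 ± 3.07 and 87.2 ± 9.03. Yme1l1 had the lowest adjusted p of these genes in UCP1 KO against WT (log2 -0.19 ± 0.07 SE, adjusted p = 0.037), and was called there without UCP1 KO replicate 1 (adjusted p = 0.0095). Hspe1 had the lowest in dKO against FGF21 KO. It was at 194 ± 17.4 CPM in WT, 158 ± 35.4 in UCP1 KO, 196 ± 38.5 in FGF21 KO and 146 ± 6.20 in dKO, with the dKO libraries (138 to 155 CPM) wholly below those of FGF21 KO (165 to 261 CPM). Its log2 difference was -0.43 ± 0.14 SE in dKO against FGF21 KO (adjusted p = 0.023) and -0.30 ± 0.13 in UCP1 KO against WT (adjusted p = 0.082).

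Between groups that do not overlap, 4 of 10 members stood apart in UCP1 KO against WT and 5 of 10 in dKO against FGF21 KO, where 23.5% and 18.6% of all genes did. dKO against WT, which shares libraries with both comparisons, called the same 4 genes (21.1% of all genes called), with Lonp1 at log2 1.01, Hspa9 at 0.60, Trap1 at -0.36 and Spg7 at -0.26. Spg7 lost that call without WT replicate 2 or WT replicate 3 (adjusted p up to 0.014), and without the 5 libraries high in skeletal muscle markers (adjusted p = 0.026). FGF21 loss alone called 0 of 10 genes (edgeR; 0 at an unadjusted p under 0.05, 0 by DESeq2; 0.0% of all genes called), and UCP1 KO against dKO called 0 of 10 (3 at an unadjusted p under 0.05, 0 by DESeq2; 0.0636% of all genes). The interaction of both losses called 0 of 40 tests over the 10 genes and 4 tissues (5 at an unadjusted p under 0.05, 0 by DESeq2; 0.0% of all genes in each tissue).

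**Figure D2:**
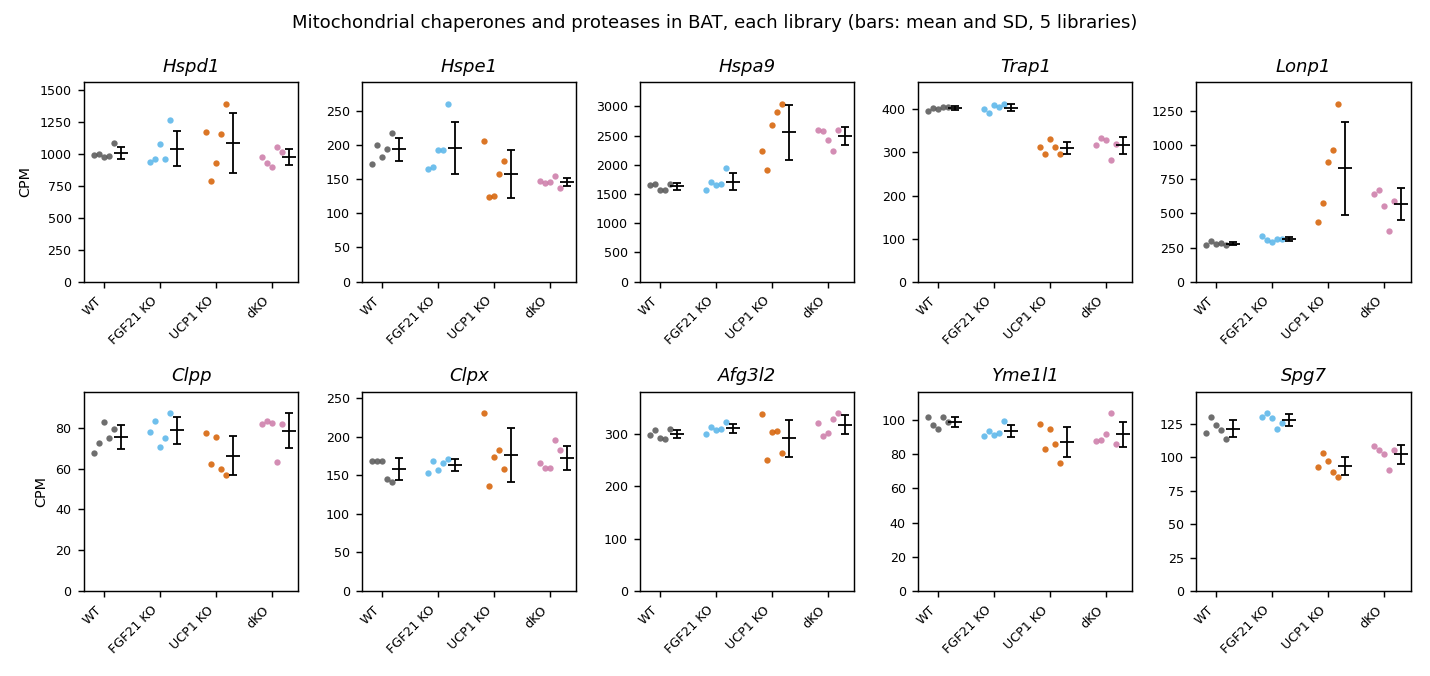
CPM of the 10 genes in the 20 BAT libraries (points) by genotype, with the mean and SD of 5 libraries as bars; axes start at 0. Lonp1 and Hspa9 are higher, and Trap1 and Spg7 lower, in UCP1 KO and dKO than in WT and FGF21 KO, while the other 6 genes overlap between UCP1 KO and WT.

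Skeletal muscle markers were uneven in BAT and highest in some of the libraries without UCP1. The 10 marker genes summed to 89.6 to 190 CPM in WT, 94.3 to 510 in FGF21 KO, 82.4 to 9213 in UCP1 KO and 144 to 4930 in dKO. With only the libraries at or under a muscle score of 6 (5 WT, 5 FGF21 KO, 3 UCP1 KO and 2 dKO), Lonp1 was at log2 1.69 in UCP1 KO against WT and 1.00 in dKO against FGF21 KO, Hspa9 at 0.74 and 0.59, Trap1 at -0.39 and -0.32 and Spg7 at -0.45 and -0.29, and all 4 kept their calls in both, where 23.3% and 13.0% of all genes were called. In the same libraries Hspe1 was at log2 -0.11 in UCP1 KO against WT (adjusted p = 0.56) and -0.49 in dKO against FGF21 KO (adjusted p = 0.035), and Hspd1 at 0.30 (adjusted p = 0.035) and -0.11 (adjusted p = 0.54). Macrophage markers (5 genes) summed to 63.4 to 78.3 CPM in WT, 85.2 to 231 in UCP1 KO, 56.7 to 86.6 in FGF21 KO and 63.2 to 132 in dKO, and their part in the results was not tested. The mean log2 level of 7 brown adipocyte markers was 8.02 to 9.17 in UCP1 KO and 7.80 to 8.66 in WT, with overlap, but 8.65 to 8.98 in dKO against 8.14 to 8.55 in FGF21 KO, without overlap. That of 6 general adipocyte markers ran from 7.33 to 8.95 in UCP1 KO (WT 8.77 to 9.29) and from 8.12 to 8.73 in dKO (FGF21 KO 8.61 to 9.19). The part of these markers in the results was not tested either.

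In inguinal fat the pattern was different. All 10 genes had higher mean log2 levels in UCP1 KO than in WT, by 0.08 to 1.40 with a median of 0.74 beside -0.03 for all genes, and none fell. No member passed an adjusted p of 0.01 in edgeR, where 0.61% of all 17380 genes did. At an unadjusted p under 0.05 there were 8 of 10, and DESeq2 called 4. No share of all genes is given for unadjusted or DESeq2 counts, so they cannot be set against a background. At an adjusted p under 0.05 the called genes were Afg3l2, Hspe1, Hspa9 and Lonp1, 4 of 10 where 2.59% of all genes were. Against dKO the same 4 passed at 0.05 in edgeR (2.32% of all genes) and 0 of 10 at 0.01 (0.466% of all genes). There 8 had an unadjusted p under 0.05 and DESeq2 called 4, again without a share. The 5 UCP1 KO libraries enter both tests.

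Afg3l2 had 69.3, 76.3, 71.5, 71.7 and 69.8 CPM in WT iWAT and 123, 83.4, 158, 149.6 and 216 CPM in UCP1 KO. In FGF21 KO it had 59.0, 86.7, 49.2, 54.7 and 59.6 CPM and in dKO 54.9, 86.7, 59.7, 86.7 and 93.0 CPM. All 5 UCP1 KO libraries were above all 5 WT libraries, while replicate 2 of UCP1 KO, which carried lymph node markers, lay within the range of dKO. The log2 difference was 1.03 ± 0.21 SE from WT (adjusted p = 0.015) and 0.95 ± 0.21 from dKO (adjusted p = 0.026).

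Hspa9 had 434, 458, 401, 417 and 348 CPM in WT and 716, 470.4, 1137, 1192 and 1890 CPM in UCP1 KO. Its log2 difference was 1.40 ± 0.32 SE from WT (adjusted p = 0.028). Lonp1 had 140.0, 151, 148, 145 and 109.5 CPM in WT and 198, 156, 356, 373 and 501 CPM in UCP1 KO, a log2 difference of 1.20 ± 0.29 (adjusted p = 0.032). Hspe1 had 66.9, 63.8, 52.7, 77.8 and 73.6 CPM in WT and 112, 90.7, 104, 126 and 173 CPM in UCP1 KO, a log2 difference of 0.87 ± 0.19 (adjusted p = 0.022). Each of these 3 genes was higher in every UCP1 KO library than in every WT library, and with Afg3l2 they make 4 of 10 members whose groups did not overlap, where 3.77% of all genes did not. Against dKO none of the 10 members had groups that did not overlap (2.12% of all genes).

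Hspd1, the ring partner of Hspe1, was at 317 ± 34.6 CPM (SD, n = 5) in WT iWAT and 619 ± 234 in UCP1 KO (log2 0.98 ± 0.28 SE, adjusted p = 0.078). Trap1 was at 219 ± 32.8 and 291 ± 54.3 CPM, Clpx at 76.0 ± 14.4 and 116 ± 37.6, Clpp at 33.5 ± 3.95 and 47.4 ± 10.5, and Spg7 at 72.6 ± 6.66 and 92.1 ± 11.9. Yme1l1 had the narrowest spread of the 10 relative to its mean, with 114 ± 2.35 CPM in WT and 120 ± 6.12 in UCP1 KO. In dKO the 10 genes lay close to WT, at log2 -0.09 to 0.11, with 0 called (edgeR; 0 at an unadjusted p under 0.05, 0 by DESeq2; 0.0173% of all genes). FGF21 KO against WT (log2 -0.48 to -0.02) and dKO against FGF21 KO (log2 0.04 to 0.45) each called 0 of 10, with 1 at an unadjusted p under 0.05 and 0 by DESeq2, where 0.00575% and 0.0115% of all genes were called.

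**Figure D3:**
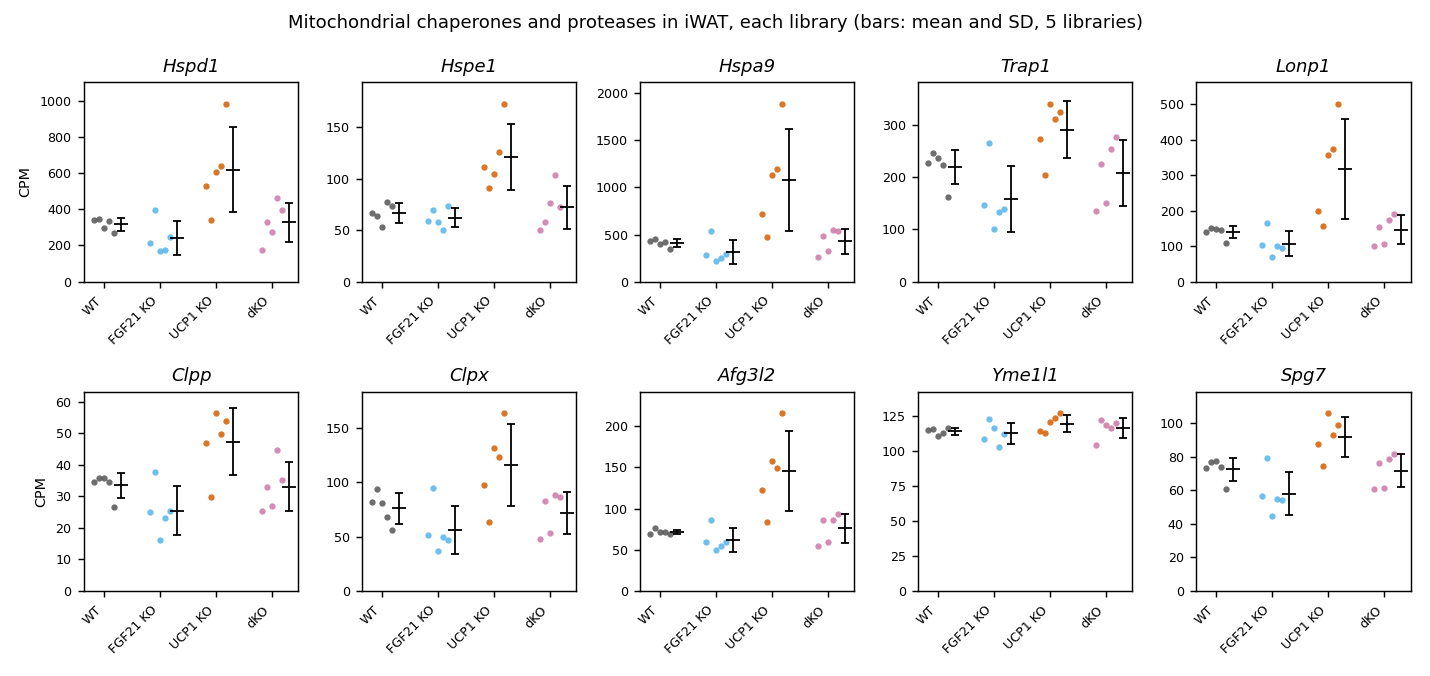
CPM of the 10 genes in the 20 iWAT libraries (points) by genotype, with the mean and SD of 5 libraries as bars; axes start at 0. The UCP1 KO libraries reach the highest values for each gene, with a wide spread, while Yme1l1 stays between 103 and 127 CPM.

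The lymph node libraries bear on these calls. With only the libraries at or under a lymph node score of 4 (3 WT, 1 FGF21 KO, 4 UCP1 KO and 3 dKO), 2 of 10 genes passed 0.01 in UCP1 KO against WT: Afg3l2 at log2 1.14 (adjusted p = 0.0029) and Hspa9 at 1.502 (adjusted p = 0.0068), where 4.1% of all genes did. At 0.05, 9 of 10 passed in that fit, all but Yme1l1, where 13.9% of all genes did. Against dKO no member passed 0.01 in that fit (1.07% of all genes did) and 5 of 10 passed 0.05 (6.46% of all genes did): Afg3l2 at log2 0.85 (adjusted p = 0.017), Hspa9 at 1.23 (0.027), Lonp1 at 1.02 (0.040), Clpp (0.040) and Clpx (0.048). Hspe1, at log2 0.70, no longer passed 0.05 there (adjusted p = 0.089). With the score as a covariate Afg3l2, Hspa9 and Lonp1 passed 0.01 against WT and against dKO, 3 of 10 where 4.72% and 4.13% of all genes did, and 6 and 9 of 10 passed 0.05, where 14.3% and 11.1% of all genes did. Leaving out UCP1 KO replicate 2 alone gave 4 calls against WT and 3 against dKO, and leaving out FGF21 KO replicate 2 gave 1 against WT. The share of all genes called in these refits was not kept, so these counts cannot be set against a background. In FGF21 KO, the 1 of 5 libraries without a high lymph node score had the highest level of 9 of the 10 genes: Hspa9 was at 539.7 CPM in it and at 221 to 296 in the others. Hspe1 was the exception, at 69.5 CPM in it and up to 73.4 in the others. The 7 brown adipocyte markers also moved with the members in iWAT, at 520 to 2913 CPM in UCP1 KO against 134 to 221 in WT, 53.4 to 205 in FGF21 KO and 87.3 to 294 in dKO, and their part in the members' levels was not tested. Skeletal muscle scores in iWAT were above 6 in WT replicates 4 and 5, FGF21 KO replicate 5 and UCP1 KO replicate 1 (6.30, 9.69, 8.22 and 10.6), and with this score as a covariate the same 4 genes passed 0.05 against WT (2.53% of all genes did), with Afg3l2 at log2 1.04 (adjusted p = 0.018). Against dKO 3 of 10 passed 0.05 with this covariate (1.86% of all genes did), Afg3l2 (adjusted p = 0.036), Hspa9 (0.043) and Lonp1 (0.045), while Hspe1 did not (0.067).

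Liver and muscle showed no called change of any member in the 5 comparisons of genotypes. In UCP1 KO against WT the 10 genes ran from log2 -0.32 to 0.11 in liver and from -0.09 to 0.18 in muscle, with medians of -0.01 and 0.07. The number at an unadjusted p under 0.05 was 0 of 10 in liver and 1 of 10 in muscle, and DESeq2 called 0. In the order UCP1 KO against WT, dKO against FGF21 KO, UCP1 KO against dKO, FGF21 KO against WT and dKO against WT, edgeR called 0.0694%, 0.00694%, 0.00694%, 0.229% and 0.0416% of all genes in liver and 0.0265%, 0.0595%, 0.0%, 0.00662% and 0.0529% in muscle. In the remaining 4 comparisons at most 3 of 10 members reached an unadjusted p under 0.05, and DESeq2 called 1 member, Spg7 in liver of dKO against WT. There Spg7 was at 41.6 ± 2.54 CPM in dKO and 33.6 ± 1.46 in WT, with no overlap (log2 0.31 ± 0.07 SE, edgeR adjusted p = 0.069). Clpx in liver varied most, from 132 to 365 CPM over the 20 libraries.

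**Figure D4:**
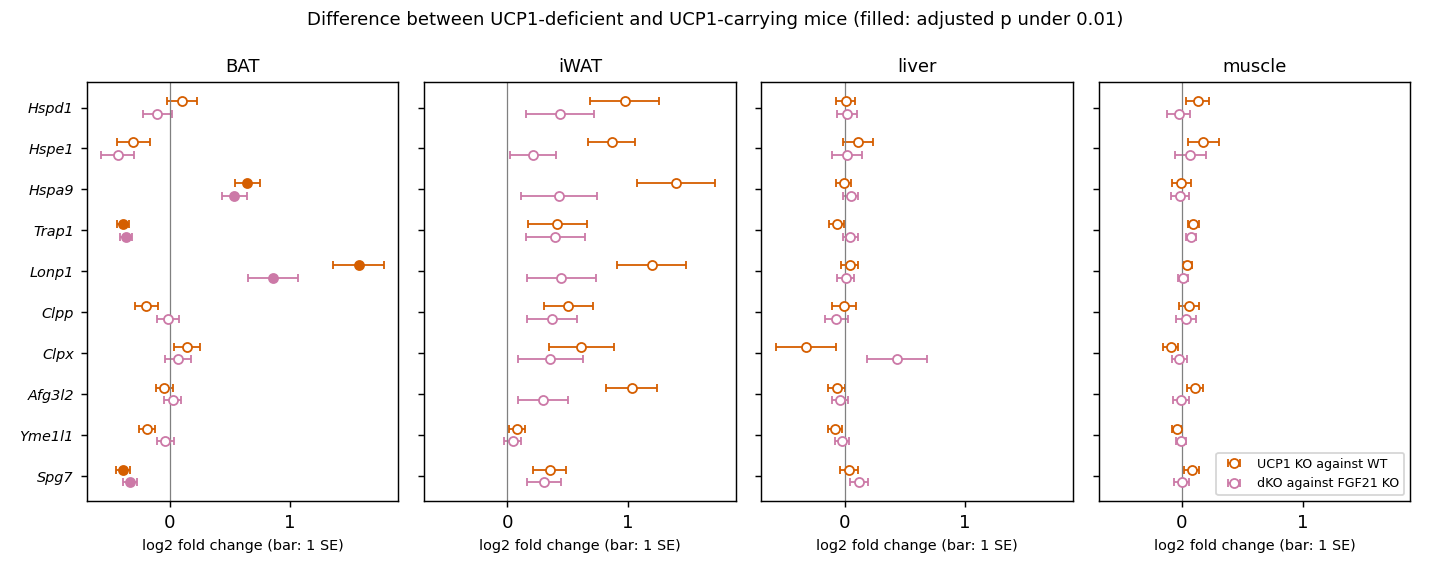
log2 fold change of the 10 genes in 4 tissues for UCP1 KO against WT and for dKO against FGF21 KO, with bars of 1 SE and filled points where the adjusted p is under 0.01. Filled points are Lonp1 and Hspa9 on the right and Trap1 and Spg7 on the left, all in BAT, and in iWAT all points lie to the right of 0.

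The response to UCP1 loss (UCP1 KO against WT) differed between BAT and iWAT for Hspe1, Afg3l2 and Spg7, in a fit over both tissues that tested the difference itself. It was lower in BAT by 1.15 ± 0.24 (log2, SE) for Hspe1 (adjusted p = 0.0011), by 1.06 ± 0.21 for Afg3l2 (adjusted p = 0.00080) and by 0.73 ± 0.14 for Spg7 (adjusted p = 0.00047), as 3 of 10 members where 6.3% of all genes were called. With iWAT libraries high in lymph node markers left out, 7 of 10 were called, where 12.6% of all genes were. The fit takes the libraries of both tissues as separate mice. The labels do not say whether the tissues came from the same mice, and the p-values of the response do not allow for that. For Lonp1 and Hspa9, which rose in BAT, a difference between the fat tissues did not pass the threshold (log2 0.39 ± 0.35, adjusted p = 0.52, and -0.74 ± 0.33, adjusted p = 0.14), although that of Hspa9 was as large as that of Spg7 and had an unadjusted p of 0.032 in edgeR. Against liver and against muscle the members that differed were the 4 called in BAT: Lonp1 (log2 1.505 and 1.55), Hspa9 (0.63 and 0.67), Trap1 (-0.34 and -0.46) and Spg7 (-0.45 and -0.45), where 10.1% and 13.4% of all genes were called.

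Partner genes whose proteins work in the same complex were also compared as ratios. The ratio of read counts of a pair does not depend on the scaling of the library, and 12 such ratios (3 pairs in 4 comparisons, set up after the counts were seen) were tested with an exact two-sided permutation test, whose smallest possible p is 0.00794. No ratio passed an adjusted p of 0.01, and those said to pass did so at 0.05. In BAT the Hspd1 to Hspe1 ratio was 5.22 ± 0.316 (SD, n = 5) in WT and 6.94 ± 0.874 in UCP1 KO (exact permutation p = 0.016, adjusted over 12 tests 0.048), and 5.37 ± 0.424 in FGF21 KO and 6.68 ± 0.460 in dKO (0.0079, adjusted 0.048). The log2 differences of the ratio were 0.40 ± 0.09 and 0.32 ± 0.07 (SE). The Clpx to Clpp ratio was 2.11 ± 0.291 in WT and 2.66 ± 0.391 in UCP1 KO (exact permutation p = 0.056, adjusted 0.095), and 2.08 ± 0.130 and 2.24 ± 0.491 in FGF21 KO and dKO (p = 0.75, adjusted 0.75, exact permutation test). Without the BAT libraries high in muscle markers the Clpx to Clpp ratio was 2.79 to 3.05 in 3 UCP1 KO libraries and 1.78 to 2.498 in 5 WT libraries, with no overlap and no test, and its mean was 2.07 in 2 dKO libraries and 2.08 in 5 FGF21 KO libraries. In iWAT neither ratio passed 0.05 in UCP1 KO against WT or against dKO. There the Hspd1 to Hspe1 ratio was 5.01 ± 0.831 in UCP1 KO, 4.82 ± 0.844 in WT and 4.54 ± 0.975 in dKO (exact permutation p = 0.72 and 0.40, adjusted 0.75 and 0.54). The Clpx to Clpp ratio was 2.403 ± 0.383, 2.26 ± 0.245 and 2.16 ± 0.298 in these groups (exact permutation p = 0.54 and 0.26, adjusted 0.65 and 0.39).

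The m-AAA protease assembles from Afg3l2 with or without Spg7, and the mean read ratio of Afg3l2 to Spg7 was higher in fat without UCP1, other than in iWAT of dKO. In BAT the Afg3l2 to Spg7 ratio was 2.48 ± 0.151 in WT and 3.15 ± 0.468 in UCP1 KO (exact permutation p = 0.032, adjusted 0.063), and 2.44 ± 0.120 in FGF21 KO and 3.12 ± 0.322 in dKO (exact permutation p = 0.0079, adjusted 0.048). In iWAT it was 0.994 ± 0.0866 in WT, 1.07 ± 0.0463 in FGF21 KO, 1.05 ± 0.107 in dKO and 1.56 ± 0.394 in UCP1 KO (UCP1 KO against WT, exact permutation p = 0.016, adjusted 0.048; against dKO 0.024, adjusted 0.057). On the CPM scale Spg7 fell in BAT, while Afg3l2 in iWAT passed 0.05 and not 0.01. Without the BAT libraries high in muscle markers the ratio was 2.48 in WT and 3.40 in UCP1 KO, and without the iWAT libraries high in lymph node markers it was 0.953 and 1.67. In WT muscle it was 1.11 ± 0.136 and in WT liver 2.43 ± 0.293.

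**Figure D5:**
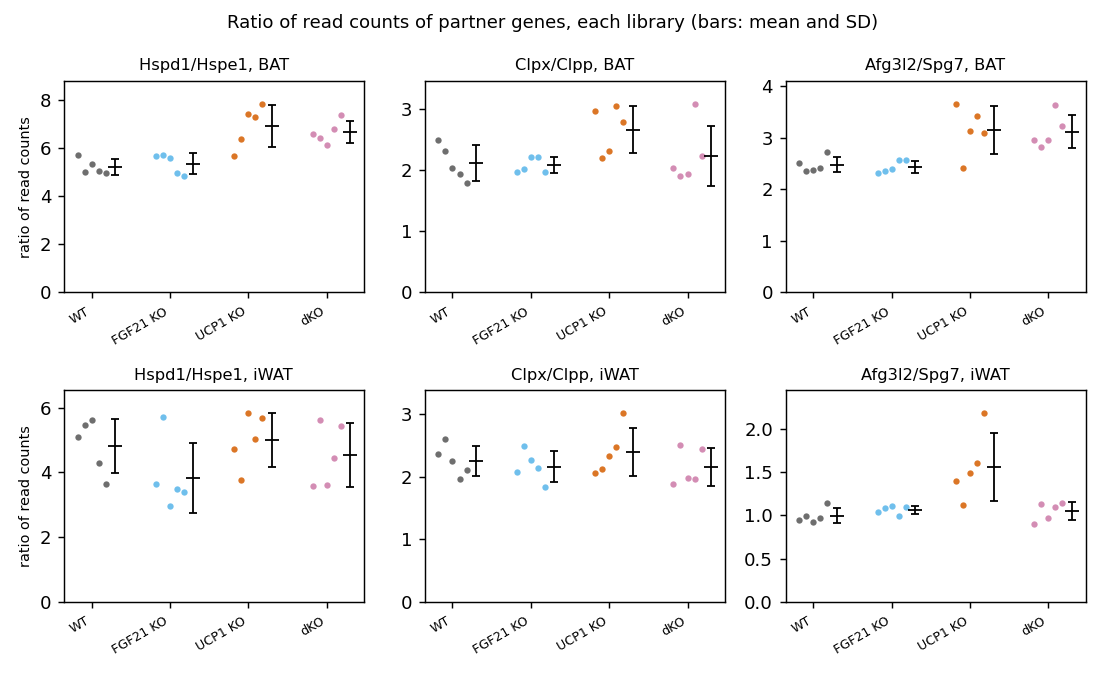
Ratio of read counts (no unit) of Hspd1 to Hspe1, Clpx to Clpp and Afg3l2 to Spg7 in each BAT and iWAT library by genotype, with the mean and SD of 5 libraries as bars; axes start at 0. In BAT the Hspd1 to Hspe1 ratio is 4.85 to 5.74 in the 10 libraries with UCP1 and 5.69 to 7.86 in the 10 without it, and in iWAT the Afg3l2 to Spg7 ratio reaches 2.18 in UCP1 KO.

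Genes around the members are described by 6 lists, whose genes were chosen with earlier results of these data known. Partner factors (20 genes: co-chaperones, other proteases and their regulators) gave 1 call higher and 1 lower in BAT of UCP1 KO against WT, with a median log2 of -0.07. All list counts in that comparison stand beside the 25.2% of all genes called, and those in dKO against FGF21 KO beside 13.5%. The called genes were Grpel2, a nucleotide exchange factor of the mitochondrial Hsp70, at 38.0 ± 7.65 CPM (SD, n = 5) against 28.5 ± 1.48 in WT, and Immp1l, a subunit of an inner membrane peptidase, at 24.2 ± 0.962 against 32.3 ± 1.54. Immp1l was also the 1 gene called in dKO against FGF21 KO. The 20 genes of protein import gave 1 call in each BAT comparison, Tomm7 of the outer membrane channel, at 59.0 ± 9.19 CPM in UCP1 KO against 85.5 ± 3.45 in WT.

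Among stress response regulators and targets of ATF4, most of the 20 genes rose in BAT. In UCP1 KO against WT 15 of 20 were called higher and 0 lower (edgeR), with a median log2 of 1.96, and in dKO against FGF21 KO 13 of 20 higher and 0 lower, with a median of 1.33. Fgf21 is on this list and counts among the calls of the first comparison. It is lost in both groups of the second and could not rise there. Fgf21 itself went from 0.249 ± 0.0234 to 24.4 ± 9.56 CPM in UCP1 KO, Gdf15, another stress hormone, from 0.124 ± 0.103 to 8.76 ± 4.56, and Trib3, a pseudokinase induced by ATF4, from 5.86 ± 1.16 to 163 ± 108. In dKO against FGF21 KO, Mthfd2, a mitochondrial folate enzyme, went from 2.44 ± 0.390 to 63.1 ± 14.2 CPM. In iWAT 1 of 20 was called in UCP1 KO against WT, Fgf21 at 6.28 ± 5.71 CPM against 0.147 ± 0.104.

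Cytosolic and ER chaperones of the same protein families (16 genes) gave 1 call in UCP1 KO against WT in BAT, Hspa5, the ER Hsp70, at 410 ± 154 CPM against 263 ± 14.1, and 1 in dKO against FGF21 KO, Hyou1, also of the ER, at 76.0 ± 5.35 against 110 ± 11.2. Their median log2 was 0.09 and 0.04. Transcripts of respiratory chain and matrix enzymes (18 genes) were read in the same fits, while mitochondrial content itself was not measured. In BAT 7 of 18 were called lower and 1 higher in UCP1 KO against WT, with a median of -0.25: Sdha of complex II was at 2688 ± 375 CPM against 3558 ± 155, Ndufs1 of complex I at 722 ± 95.7 against 949 ± 48.2, Ndufb8 of complex I at 502 ± 113 against 682 ± 17.6, and the outer membrane pore Vdac1 at 391 ± 11.7 against 325 ± 28.5. In dKO against FGF21 KO 2 of 18 were called lower, Sdha and Ndufs1.

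In iWAT the enzyme list and the members lay on the same side of 0. List counts in iWAT stand beside the 0.61% of all genes called in UCP1 KO against WT and 0.466% in UCP1 KO against dKO. Of the 18 enzymes 2 were called, both higher, in UCP1 KO against WT, with a median of 1.15 beside 0.74 for the 10 members. Cox5a of complex IV was at 267 ± 113 CPM against 101 ± 9.69. Against dKO the same 2 were called, and the median was 1.19 beside 0.73 for the members. In BAT the medians were -0.25 for the enzymes and -0.12 for the members in UCP1 KO against WT, and -0.10 and -0.03 in dKO against FGF21 KO. Import genes had a median of 0.58 in iWAT with 1 of 20 called, Timm9, a chaperone of the intermembrane space, at 25.8 ± 8.53 CPM against 12.3 ± 1.06, and partner factors a median of 0.45 with 0 of 20 called (edgeR; 15 at an unadjusted p under 0.05).

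Substrates and sensors of these proteases (11 genes) gave 5 calls in UCP1 KO against WT in BAT. Alas1, the entry enzyme of haem synthesis and a substrate of Lonp1 at the protein level, was at 894 ± 244 CPM against 323 ± 78.8 in WT and at 1197 ± 336 in dKO against 382 ± 21.6 in FGF21 KO. Mcu, the pore of the calcium uniporter, was at 24.7 ± 2.46 CPM against 17.9 ± 0.489. Opa1, the fusion protein that Yme1l1 cleaves, was called lower at 213 ± 41.3 against 279.5 ± 12.0, and so was Pink1, a kinase that marks damaged mitochondria, at 162 ± 19.4 against 211 ± 17.4. In dKO against FGF21 KO 2 of 11 were called, Alas1 and Mcu, both higher. The cytosolic and ER list gave 0 of 16 in iWAT of UCP1 KO against WT (edgeR; 6 at an unadjusted p under 0.05). In liver and muscle no gene of the 6 lists was called by edgeR in UCP1 KO against WT, with 0 to 8 genes of a list at an unadjusted p under 0.05.

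Over the 80 libraries, each set as a log2 deviation from the mean of its own tissue and genotype, the genes most like a member differed from member to member. The measure was the Pearson correlation over 13129 genes tested in all tissues, and it is a description, since the points share libraries, depth and the admixtures above. The deviations were not scaled within a tissue, so a tissue of wide spread such as iWAT weighs more. Hspd1 with Trap1 was at 0.71 over the 80 libraries and 0.87 in iWAT, but -0.14 in BAT, 0.07 in liver and -0.01 in muscle. Hspd1 with Hspe1, at 0.72 over the 80 libraries, was positive in each tissue. Hspa9 was most like Ghitm (r = 0.96), Atp5b (0.92) and Cs (0.91), and Afg3l2 most like Dlst (0.93), Atp5a1 (0.93) and Coq5 (0.92). Clpp was most like Atp5d (0.94), Uqcr11 (0.93) and Ndufa7 (0.93), and Trap1 most like Mccc1 (0.95), Pccb (0.94) and Pmpcb (0.93). Hspd1 was most like Hspa9 (0.89), Dnaja3 (0.89) and Grsf1 (0.86), and Lonp1 most like Tmbim6 (0.88), Reep6 (0.87) and Hspa9 (0.84). Hspe1 stood with genes of the cytosolic chaperone system, Hspa4l (0.85), Ptges3 (0.82) and Ahsa1 (0.81). Spg7 was most like Mlf2 (0.86), Trappc9 (0.86) and Dgcr6 (0.85), Clpx most like Stx18 (0.78), Insig2 (0.77) and Mmadhc (0.76), and Yme1l1 was near Fyttd1 (0.71) and Dnajb6 (0.69).

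How the members varied together within groups also depended on the tissue. In iWAT every pair of members correlated positively over the 20 libraries, from 0.32 for Hspe1 with Spg7 to 0.98 for Trap1 with Spg7. Each iWAT group mixed libraries with high and low lymph node scores, and the part of this mixture in the correlations was not tested. In BAT Hspd1 and Hspe1 correlated at 0.82 and Hspa9 and Lonp1 at 0.77, while Lonp1 with Yme1l1 was at -0.70 and Hspd1 with Spg7 at -0.64. In muscle Hspd1 and Hspe1 reached 0.92, and in liver 0.50. Afg3l2 and Spg7, the subunits of the m-AAA protease, correlated at 0.83 in iWAT and at -0.20 in BAT.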

How the data were processed

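Poly(A) RNA of 80 libraries was sequenced by the authors as stranded paired reads, aligned with STAR to mm10 (GRCm38) and counted with HTSeq-count over UCSC known genes. The deposited values are raw counts per gene, whole numbers with no scaling. The strand and multi-mapping options of the counting are not given in the sources used here. The submitters' processing notes name STAR, HTSeq and mm10. The 1 row naming no gene (at most 3.42e-05 % of a library's counts) was left out, and none of 760 pairs of libraries of a tissue was identical.

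Within each tissue, genes were kept as the study's methods state (a count above 15 in a library, a sum above 75 and at most 10 libraries at 0), which left 15729 in BAT, 17380 in iWAT, 14407 in liver and 15114 in muscle. edgeR 4.0.16 in R 4.3.3 scaled the libraries by TMM and fitted 1 mean per group over the 20 libraries of a tissue, with quasi-likelihood F tests and Benjamini-Hochberg adjustment over all genes. A gene is called at an adjusted p under 0.01. CPM are per 1000000 of the TMM-scaled total, within a tissue or within the WT libraries. Levels per kb divide by merged exons of GENCODE vM21. The labels name no pairing, batch or mouse, so p-values measure the spread between libraries. Alternatives were DESeq2 1.42.0, RLE factors, no filter, an adjusted p of 0.05 and fits of 2 genotypes alone. Further ones were marker scores as covariates or as limits (mean of log2 CPM plus 0.1), and leaving out each library. Upper quartile factors were used only for levels across tissues. The scripts were tested on simulated data.

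The members and lists were chosen with earlier results of these data known. The text names all members, and for each list and comparison described up to 3 called genes with the largest rise and 3 with the largest fall. Among called stress genes others are given by number, and some genes that the rule names are not reported here. Motifs were matched to RefSeq promoter windows.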

Additional observations from a re-analysis of the deposited data

Results flagged for a closer look

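Among 160 groups of 5 libraries (10 genes in 16 groups), 12 held a library far from the other 4, where chance gives about 1 in 20 groups. Of these 8 lie in iWAT. In WT iWAT replicate 5, which has high lymph node and muscle scores, was lowest for Trap1 (163 CPM, the others 224 to 246), Lonp1 (110 CPM, the others 140 to 151), Clpp (26.5 CPM, the others 34.7 to 35.9) and Spg7 (61.1 CPM, the others 73.3 to 77.3). In FGF21 KO iWAT replicate 2, the only library of that group with a low lymph node score, was highest for Hspa9 (539.7 CPM, the others 221 to 296), Trap1 (266 CPM, the others 101 to 146), Clpx (94.2 CPM, the others 36.8 to 51.8) and Afg3l2 (86.7 CPM, the others 49.2 to 59.6). The remaining libraries were Hspd1 in WT BAT replicate 5 (1086 CPM, the others 975 to 999.9), Clpp in dKO BAT replicate 4 (63.3 CPM, the others 81.9 to 83.2), Lonp1 in UCP1 KO liver replicate 1 (121 CPM, the others 144 to 151) and Lonp1 in FGF21 KO muscle replicate 1 (112 CPM, the others 101 to 103).

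The response to UCP1 loss differed between tissues by a test of the difference. Relative to iWAT, the log2 difference in BAT was -1.06 for Afg3l2, -1.15 for Hspe1 and -0.73 for Spg7. Relative to liver it was 1.505 for Lonp1, 0.63 for Hspa9, -0.45 for Spg7 and -0.34 for Trap1, and relative to muscle it was 1.55 for Lonp1, 0.67 for Hspa9, -0.45 for Spg7 and -0.46 for Trap1.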

How the results depend on the processing

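In BAT the number of called members stayed within 3 and 5 for the comparisons with calls, under each alternative run there and each omission of a library. The iWAT comparisons of UCP1 KO changed most. Against WT the count of 0 became 4 at an adjusted p of 0.05, 1 with RLE factors, 4 with DESeq2, 3 with a lymph node covariate and 2 with only libraries low in that score. Against dKO it became 4 at 0.05, 4 with DESeq2 and 3 with the lymph node covariate, and stayed at 0 in edgeR with only libraries low in that score. Leaving out each library gave 0 to 4 calls against WT and 0 to 3 against dKO. No share of all genes is given for RLE factors, DESeq2 or the omission of a library. Those counts cannot be set against a background. Members whose response differed between BAT and iWAT went from 3 to 6 at 0.05 and to 7 with only iWAT libraries low in lymph node markers, a limit chosen after seeing the data, as was the one on muscle markers in BAT. No called log2 difference of a member in BAT or iWAT changed sign under the alternatives run. No paired analysis was possible because the labels carry no replicate numbers and link no tissues to a mouse. The replicate numbers used here follow accession order and only name libraries. With 5 libraries a group, differences under the spread of the iWAT groups, several of which mix libraries with and without lymph node markers, could not be resolved.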
